A study of Mus musculus with 15 samples.

Results

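Duodenum and liver RNA was compared gene by gene in wild-type C57BL/6 males of 2 to 3 months, using 3 duodenum and 3 liver libraries of the 15 libraries of a study that also covers jejunum, ileum and large intestine. No treatment is given in the labels for either tissue. Livers had the gallbladder removed and the gut was rinsed with saline before freezing, per the labels. Each library is called by its tissue and its title number, and values are listed in the order duodenum 24, 27 and 28 and liver 24, 26 and 27. The deposited unit is FPKM, a fragment count scaled to transcript length and library size. Of 23349 genes in the table, 12343 were tested, those that reached 1 FPKM in 3 or more of the 6 libraries. Separate animals are not stated in the labels, so p-values reflect scatter among the samples at hand, part of which may be technical.

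The duodenum is the first stretch of the small intestine, where chyme from the stomach meets bile and pancreatic juice. Its epithelium of enterocytes, goblet, Paneth, tuft and enteroendocrine cells digests and takes up nutrients and is renewed without pause from crypt stem cells. The liver receives the absorbed nutrients through the portal vein, and its hepatocytes make most plasma proteins, bile acids and urea. Both tissues handle foreign compounds with related sets of enzymes and transporters, which is the question in the study's title.

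The summed FPKM of a library was 428494 to 534555 in duodenum and 519437 to 537031 in liver, and read counts were not used here, so depth is unknown. The 10 most abundant genes held 13.9 to 16.1% of the summed FPKM in duodenum libraries and 21.0 to 22.7% in liver libraries. The 100 most abundant held 35.3 to 41.4% and 56.5 to 58.3% in the same order. Between 11832 and 12292 genes reached 1 FPKM in a duodenum library, against 10233 to 10315 in a liver library. Pearson correlations of log2(FPKM + 1) over the tested genes were 0.976 to 0.987 among duodenum libraries, 0.984 to 0.992 among liver libraries and 0.415 to 0.457 between the tissues, as a description across genes.

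Some libraries stood apart from the others of their tissue. Duodenum 28 held transcripts of stomach and Brunner gland type. Tff2, a trefoil peptide of gastric and Brunner gland mucus, had 4.63, 0.963 and 7792 FPKM in duodenum, against 3.20, 0.0486 and 1.55 FPKM in liver. Gkn2, a gastrokine of the stomach surface, had 0.263, 0.729 and 756 FPKM in duodenum, and Muc6, a gland mucin, 0.386, 0.0887 and 269 FPKM. The 11 genes of the Brunner gland and stomach marker list summed to 10541 FPKM in duodenum 28, against 6.87 and 4.25 FPKM in the other duodenum libraries and 0.814 to 4.59 FPKM in liver. Atp4b, a subunit of the acid pump of gastric parietal cells, was listed at 0 in all 6 libraries. The same library led in some pancreatic enzymes: Amy2a5, pancreatic amylase, had 6.70, 0.734 and 101 FPKM in duodenum and 4.22, 0.849 and 0.929 FPKM in liver, and Ctrb1, chymotrypsinogen, 1.37, 0.734 and 29.8 FPKM in duodenum and 0.702, 0.0271 and 0 FPKM in liver. Clps, colipase, was instead highest in duodenum 24, at 270, 152 and 171 FPKM in duodenum. The 21 genes of the pancreatic acinar cell marker list summed to 2069, 1469 and 2586 FPKM in duodenum. Neither Tff2 nor Amy2a5 was called between the tissues (adjusted p = 0.333 and 0.315).

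Liver 26 stood apart in metallothioneins and acute-phase proteins. Mt1, a metal-binding protein, had 125, 74.8 and 130.5 FPKM in duodenum and 8.31, 608 and 16.7 FPKM in liver, and its relative Mt2 16.8, 6.14 and 17.5 FPKM in duodenum and 2.89, 374 and 4.38 FPKM in liver (log2 difference 1.21 for Mt1 and -0.58 for Mt2, neither called with all 6 libraries). Without liver 26 both were called higher in duodenum, Mt1 at 3.07 (limma adjusted p = 0.000137; 0.000137 to 0.98 over the alternatives) and Mt2 at 1.54 (limma adjusted p = 0.0236; 0.0236 to 0.966 over the alternatives). Saa1, serum amyloid A, had 0.121, 0 and 0 FPKM in duodenum and 67.4, 176 and 56.9 FPKM in liver. The fatty acid hydroxylase Cyp4a14 was lowest in that library among livers, with 0.126, 0 and 0.191 FPKM in duodenum and 305, 72.4 and 244 FPKM in liver. Transcripts of each tissue were also found at trace level in the other. Alb, albumin, the main plasma protein, had 15.5, 0.504 and 12.2 FPKM in duodenum, with duodenum 27 lowest, against 23279, 29501 and 24897 FPKM in liver. The 8 Paneth cell genes summed to 13599 to 26252 FPKM in duodenum, and to 5.04, 0.711 and 9.63 FPKM in the liver libraries, with liver 26 lowest. The part of these libraries in any single result was not tested beyond leaving them out: without both duodenum 28 and liver 26, a choice made after their values were seen, 4041 of the genes called higher and 1230 of those called lower with all 6 libraries were called again in the same direction.

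**Figure D1:**
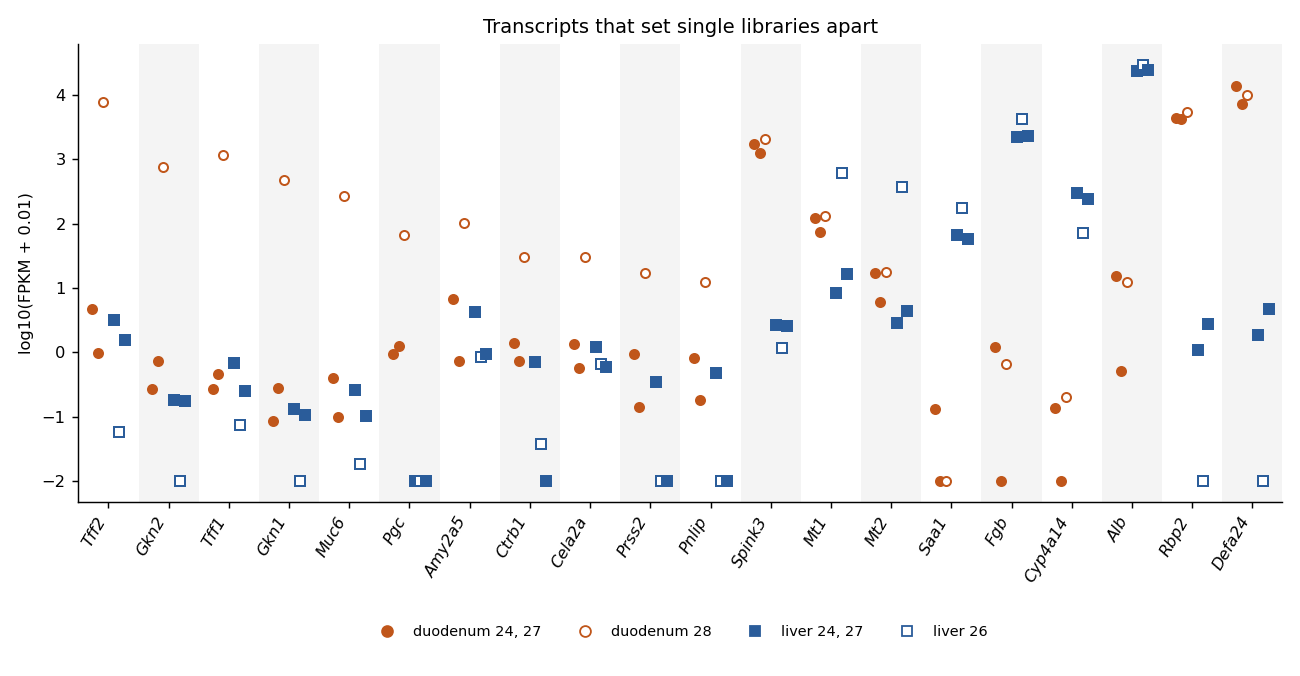
Level of 20 transcripts in each library as log10(FPKM + 0.01), with duodenum circles left of liver squares; open symbols are duodenum 28 and liver 26. Tff2 stood at 7792 FPKM in duodenum 28 and under 5 FPKM in the other 5 libraries, and Mt2 at 374 FPKM in liver 26.

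Calls needed a limma adjusted p below 0.05 together with a log2 difference (duodenum minus liver, on log2(FPKM + 1)) of at least 1 in size. On this rule 5429 of 12343 genes were called (44%). Of these, 4160 were higher in duodenum (33.7% of the genes tested) and 1269 were lower (10.3%). The split depends on how libraries are scaled to each other. The median log2 difference over all tested genes was 0.60 on FPKM as deposited and 0.01 after median-of-ratios scaling, whose factors were 1.25 to 1.35 for duodenum and 0.76 to 0.79 for liver libraries. After that scaling 2443 genes were called higher (19.8%) and 2039 lower (16.5%), so that higher calls made up 54.5% of all calls, against 76.6% as deposited. All 1269 genes called lower as deposited were called lower again, and 2443 of the 4160 called higher were called higher again. The scaling moved differences downward, as the medians show, so lower calls could hardly be lost. Their return is therefore no separate support for them. All 3 duodenum libraries lay above all 3 liver libraries for 8036 genes (65.1%) and below them for 2274 genes (18.4%). Log2 differences of more than 5 were found for 277 genes called higher and 262 called lower. A gene that passed the filter through 1 tissue alone had to differ, so counts over the tested members of a gene list are descriptions. They are to be read beside the 33.7% called higher and 10.3% called lower over all tested genes. In bulk tissue, fewer cells of a type and less RNA per cell cannot be told apart.

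**Figure D2:**
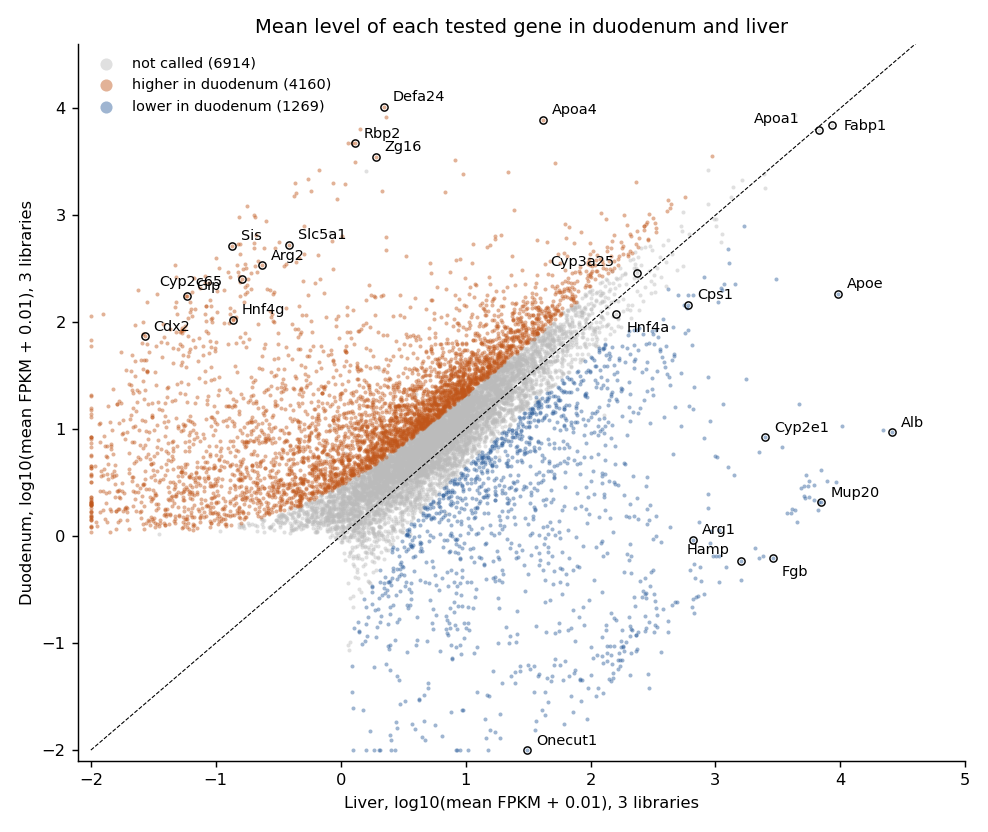
Mean FPKM of each of the 12343 tested genes, liver on the horizontal and duodenum on the vertical axis, both as log10(mean FPKM + 0.01); colours mark genes called higher (4160), lower (1269) or not called, and the dashed line marks equal levels. Rbp2, Sis and Arg2 lie far above the line, Alb, Fgb and Arg1 far below it, and Apoa1 and Fabp1 on or near it.

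The largest differences in favour of duodenum included those of 4 genes with alpha-defensin symbols, Rbp2 and Prap1. Defa24, an antimicrobial alpha-defensin, had 13935, 7146 and 9897 FPKM in duodenum, against 1.83, 0 and 4.77 FPKM in liver (log2 difference 11.94 ± 0.63 (SE), adjusted p = 3.53e-06). Rbp2, the cellular protein that carries absorbed vitamin A, had 4452, 4290.4 and 5367 FPKM in duodenum and 1.09, 0 and 2.77 FPKM in liver (log2 difference 11.20 ± 0.44 (SE), adjusted p = 2.88e-07). Prap1, a secreted proline-rich acidic protein, stood at 3015, 2598 and 3871 FPKM in duodenum and 1.77, 0 and 2.14 FPKM in liver. Without liver 26, the liver library where it was listed at 0, the log2 difference of Defa24 was 11.27, and without liver 27 it was 12.53. Among the 10 largest higher differences, Defa24, Defa23, Defa3 and Defa17 carry alpha-defensin symbols, and Gm15284, Gm7849, AY761184 and Gm14851 are listed under model or clone symbols. Defensin copies are near-identical, so reads may be split between them.

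The largest differences in the other direction were those of secreted hepatocyte proteins. Alb, whose values are given above, had a log2 difference -11.87 ± 0.93 (SE), adjusted p = 5e-05; without duodenum 27 the log2 difference was -10.77 and without duodenum 24 it was -12.50. Serpina1e, an alpha-1 antitrypsin, had 4.27, 1.67 and 3.57 FPKM in duodenum and 7172, 13201 and 7419 FPKM in liver (log2 difference -11.12 ± 0.31 (SE), adjusted p = 1.39e-08). Serpina3k, another serine protease inhibitor of plasma, had 3.02, 0 and 2.17 FPKM in duodenum and 6297, 7439 and 6141 FPKM in liver. Mup20, a major urinary protein that male mice excrete as a scent carrier, had 4.13, 0 and 2.10 FPKM in duodenum and 6294, 7461 and 7429 FPKM in liver; copies of the Mup cluster are also near-identical, so values of single copies are uncertain. In these 4 genes duodenum 27 was the lowest library, and every duodenum value lay below every liver value, as for 18.4% of all tested genes. Without duodenum 27 the log2 difference was -10.85 for Serpina3k, against -11.47 with all 6 libraries, and -10.79 for Mup20, against -11.45.

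Among the most abundant genes, Fabp1 and Apoa1 were shared by both tissues. Fabp1, the liver-type fatty acid binding protein, had 6628, 6477 and 7809 FPKM in duodenum and 10129, 7131 and 8633 FPKM in liver, and the ranges overlapped (log2 difference -0.30 ± 0.20 (SE), adjusted p = 0.195); the difference was -1.03, and called lower, with median-of-ratios scaling, but 0.19 under quantile normalization. Apoa1, the main protein of high-density lipoprotein, had 6696, 5244 and 6617 FPKM in duodenum and 6209, 7998 and 5953 FPKM in liver (log2 difference -0.12 ± 0.20 (SE), adjusted p = 0.605); its difference was -0.84 with median-of-ratios scaling and 0.61 under quantile normalization, neither of them called. Only 8 genes averaged 1000 FPKM or more in both tissues, of 48 that did so in duodenum and 66 in liver. Mir3064, a microRNA precursor record, is among these 8. FPKM is scaled to transcript length and read counts were not used, so the fragments behind its values are not known. Mir3064 had 2894, 12784 and 10338 FPKM in duodenum and 4301, 3412 and 5325 FPKM in liver and was not called (log2 difference 0.76). It was called higher without duodenum 24, its lowest duodenum library (1.43, limma adjusted p = 0.00289; 0.00289 to 0.953 over the alternatives), and under quantile normalization (1.94); with median-of-ratios scaling the difference was 0.036.

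Promoter sequence was read for genes at these extremes, to show which short motifs lie before their starts. RefSeq promoters of GRCm38.p6 were found for 62 of the 100 genes with the largest higher differences, for 70 of the 100 with the largest lower differences and for 9142 tested genes in all. Each promoter spans 250 bases before to 50 after a gene start, and motifs were searched on both strands as exact letters. The lines below give the 250 bases before the start, 5′ to 3′ on the gene's strand, with capitals on 5 of the motifs searched, named in the next paragraph. Rbp2 and Sis stand for genes called higher, Fabp1 for a gene abundant in both tissues, and Alb, Serpina1e and Fgb for genes called lower; the 6 were chosen after their values were seen. They lie at chr9:98490287-98490536 on the plus strand, chr3:72967864-72968113 on the minus strand, chr6:71199629-71199878 and chr5:90460620-90460869 on the plus strand, and chr12:103956898-103957147 and chr3:83049864-83050113 on the minus strand.
Rbp2: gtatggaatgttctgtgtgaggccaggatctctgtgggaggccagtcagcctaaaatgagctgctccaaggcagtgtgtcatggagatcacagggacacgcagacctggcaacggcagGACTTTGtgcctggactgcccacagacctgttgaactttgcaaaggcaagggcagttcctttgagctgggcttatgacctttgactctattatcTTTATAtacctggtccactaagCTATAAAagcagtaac
Sis: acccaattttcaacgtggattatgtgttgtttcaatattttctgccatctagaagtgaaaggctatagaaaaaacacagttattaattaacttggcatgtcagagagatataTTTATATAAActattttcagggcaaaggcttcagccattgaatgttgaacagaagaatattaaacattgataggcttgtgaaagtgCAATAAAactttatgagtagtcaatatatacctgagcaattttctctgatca
Fabp1: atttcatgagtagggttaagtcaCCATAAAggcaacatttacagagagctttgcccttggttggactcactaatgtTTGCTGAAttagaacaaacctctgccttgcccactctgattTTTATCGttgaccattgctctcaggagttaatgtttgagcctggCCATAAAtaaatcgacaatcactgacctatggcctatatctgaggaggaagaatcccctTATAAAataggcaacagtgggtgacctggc
Alb: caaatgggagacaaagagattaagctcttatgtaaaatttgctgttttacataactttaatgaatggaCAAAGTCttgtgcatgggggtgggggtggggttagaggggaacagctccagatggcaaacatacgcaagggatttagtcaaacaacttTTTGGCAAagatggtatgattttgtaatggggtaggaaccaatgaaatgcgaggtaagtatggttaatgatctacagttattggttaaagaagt
Serpina1e: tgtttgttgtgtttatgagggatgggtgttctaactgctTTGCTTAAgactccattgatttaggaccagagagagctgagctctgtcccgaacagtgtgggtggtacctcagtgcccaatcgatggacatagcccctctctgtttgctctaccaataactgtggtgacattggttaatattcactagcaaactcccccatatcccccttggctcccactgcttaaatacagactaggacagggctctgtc
Fgb: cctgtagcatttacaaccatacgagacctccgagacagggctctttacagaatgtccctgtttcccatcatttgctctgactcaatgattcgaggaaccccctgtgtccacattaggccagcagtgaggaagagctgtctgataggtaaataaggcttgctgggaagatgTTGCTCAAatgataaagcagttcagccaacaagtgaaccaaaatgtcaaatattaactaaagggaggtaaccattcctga

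Capitals mark 5 motifs where their letters occur; the GC box occurs in none of these 6 stretches. The motifs include the HNF4 core, with the letters CAAAGTC. The C/EBP core has the letters TTGCNNAA and the CDX core CNATAAA. The TATA box has the letters TATAAA, and the GC box has GGGCGG. The CDX core overlaps a TATA box wherever its second letter is T. The HNF4 core was present in 22.6, 10 and 5.11% of the higher set, the lower set and all tested genes with a promoter, the C/EBP core in 9.68, 31.4 and 10.4%, and the CDX core in 27.4, 27.1 and 8.99%. The TATA box was present in 32.3, 27.1 and 9.63%, while the GC box was present in 19.4, 7.14 and 67.0%. The GATA core (AGATAA) and the E box (CACGTG) stood at 14.5, 14.3 and 8.37% and at 9.68, 2.86 and 11.7%. The GATA core and the E box are not marked in the stretches shown. Among the 200 largest differences each way, the GC box was present in 27.1 and 13.8% and the HNF4 core in 15.8 and 11.7% of the higher and the lower set. These matches are descriptions of letters and not of binding. A gene counted where any of its listed promoters held the motif, with means of 1.19, 1.1 and 1.27 promoters per gene in the higher set of 100, the lower set of 100 and all genes. On the first listed promoter alone the HNF4 core was present in 19.4, 8.57 and 4.19%. Near-identical gene copies were not merged, so a shared promoter can count more than once.

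Secreted proteins of the plasma were low in duodenum as a group. All 33 tested genes of the plasma protein list were called lower in duodenum, with a median log2 difference of -8.35 beside 0.60 for all genes. They held 0.00906 to 0.0216% of the summed FPKM of a duodenum library, against 17.3 to 22.0% of a liver library. Of 29 tested coagulation and fibrinolysis genes, 3 were called higher, 23 lower and 3 not called (29 of 30 in the table passed the filter); under quantile normalization 1 was called higher. Fgb, a fibrinogen chain, had 1.18, 0 and 0.658 FPKM in duodenum and 2215, 4192 and 2274 FPKM in liver (log2 difference -10.82 ± 0.34 (SE), adjusted p = 3.34e-08), with liver 26 the highest. The 3 called higher were Plau, Plat and Thbd, the plasminogen activators urokinase and tissue type and the endothelial receptor thrombomodulin; Plau had 3.995, 6.13 and 3.29 FPKM in duodenum and 0.491, 0.653 and 0.514 FPKM in liver, and Thbd was no longer called with median-of-ratios scaling (log2 difference 0.94). Of 29 tested complement genes, 1 was called higher, 24 lower and 4 not called (29 of 30 in the table passed the filter); without liver 24 and with a pseudocount of 0.1, 2 were called higher. C3, the central complement component, had 9.50, 2.89 and 4.14 FPKM in duodenum and 1021, 1111 and 936 FPKM in liver (log2 difference -7.42 ± 0.33 (SE), adjusted p = 2.21e-07). The gene called higher was Cfd, complement factor D, known also as the fat cell product adipsin, with 63.4, 18.4 and 35.8 FPKM in duodenum and 1.78, 1.03 and 0.33 FPKM in liver; the fat cell marker Adipoq, adiponectin, stood at 19.6, 4.44 and 12.2 FPKM in duodenum and 0.0395, 0.11 and 0 FPKM in liver, with the same order of duodenum libraries.

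Apolipoproteins, which wrap fat for transport, were divided between the tissues. Of 20 tested apolipoprotein and plasma lipid enzyme genes, 2 were called higher, 14 lower and 4 not called (20 of 21 in the table passed the filter). The list held 3.59 to 4.14% of the summed FPKM in duodenum and 7.55 to 7.86% in liver. Apoa4, a protein of chylomicrons, had 8689, 6907 and 7854 FPKM in duodenum and 31.6, 56.1 and 36.8 FPKM in liver (log2 difference 7.56 ± 0.22 (SE), adjusted p = 1.03e-08). Apoc2, the activator of lipoprotein lipase, was the other gene called higher, at 2225, 1618 and 2277 FPKM in duodenum and 208, 269 and 219 FPKM in liver. Apoa2, a second protein of high-density lipoprotein, had 13.7, 6.51 and 11.9 FPKM in duodenum and 11245, 8710.4 and 11104 FPKM in liver (log2 difference -9.84 ± 0.25 (SE), adjusted p = 4.6e-09). Apoe, a ligand for uptake of lipoprotein remnants, was lower in duodenum too, at 162, 269 and 125 FPKM in duodenum and 10220.4, 8785 and 9841 FPKM in liver. Apob, the structural protein of chylomicrons and very low-density lipoprotein, had 212, 248.7 and 191 FPKM in duodenum and 395, 425 and 384 FPKM in liver and missed the size threshold (log2 difference -0.89), which it passed after median-of-ratios scaling (-1.62). Mttp, the protein that loads fat onto Apob, was higher in duodenum, at 659.7, 572 and 606 FPKM, than in liver, at 71.1, 55.1 and 63.8 FPKM (log2 difference 3.26 ± 0.14 (SE), adjusted p = 1.03e-07).

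**Figure D3:**
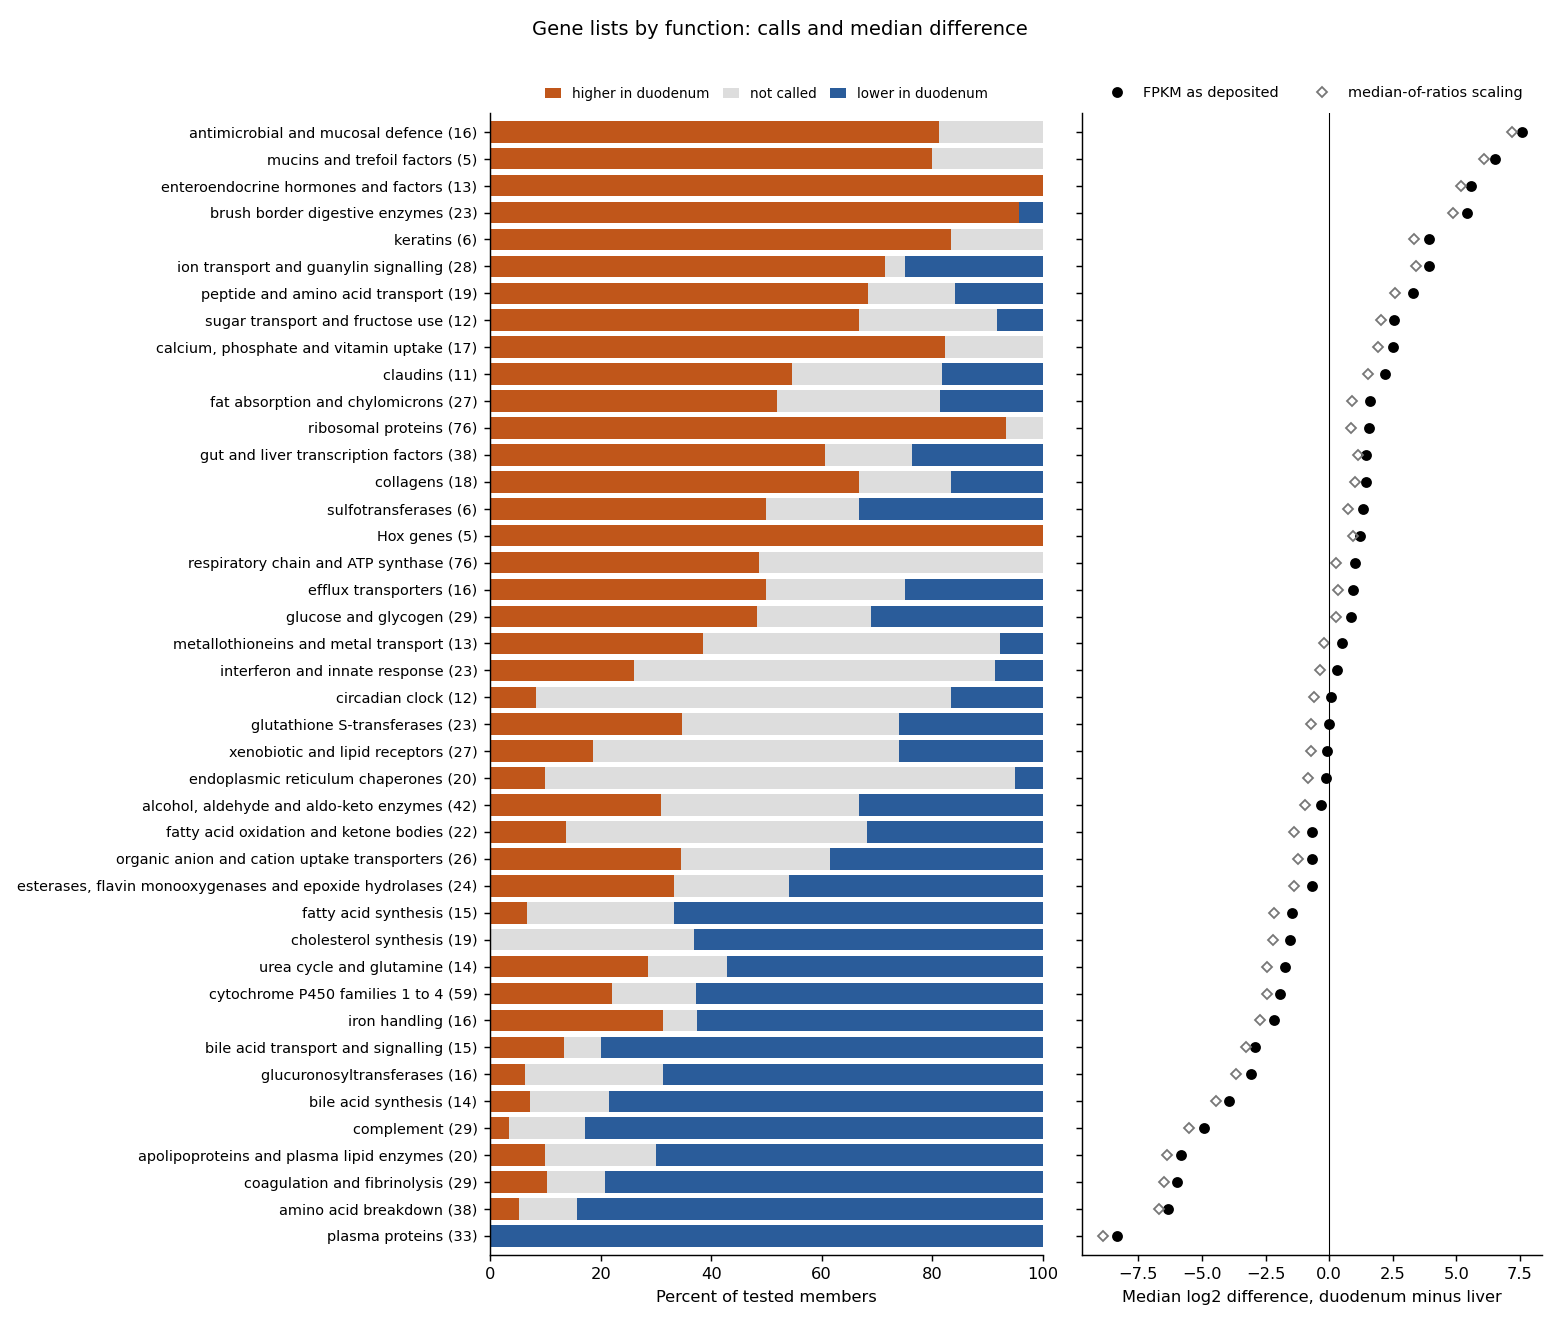
Gene lists by function with at least 5 tested members, ordered by median; the left panel gives the percent of tested members called higher, not called and lower in duodenum, and the right panel the median log2 difference on FPKM as deposited and with median-of-ratios scaling. Medians ran from -8.35 for plasma proteins to 7.56 for antimicrobial and mucosal defence, and tested member numbers stand in parentheses.

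Nitrogen metabolism showed a division along the arginine pathway. In liver the urea cycle turns ammonia into urea by way of citrulline and arginine, whereas the small intestine is known to release citrulline made from glutamine. Of 14 tested genes, 4 were called higher, 8 lower and 2 not called, and 3 and 8 with median-of-ratios scaling. The higher count as deposited lay near the 33.7% over all tested genes, and the lower count above the 10.3%. Aldh18a1, which makes the precursor of ornithine and proline from glutamate, had 87.7, 93.9 and 79.5 FPKM in duodenum and 0.312, 0.678 and 0.333 FPKM in liver (log2 difference 5.94 ± 0.12 (SE), adjusted p = 1.32e-09). Oat, ornithine aminotransferase, had 617, 492 and 511 FPKM in duodenum and 222, 235 and 237 FPKM in liver; its log2 difference of 1.22 was 0.49 and not called with median-of-ratios scaling. Otc, which makes citrulline, had 71.6, 78.1 and 76.4 FPKM in duodenum and 205, 194 and 199.7 FPKM in liver (log2 difference -1.39 ± 0.11 (SE), adjusted p = 4.69e-06), and Cps1, the enzyme that fixes ammonia for it, 163, 154 and 122 FPKM in duodenum and 555, 719 and 552 FPKM in liver (log2 difference -2.05 ± 0.17 (SE), adjusted p = 6.9e-06). Both were lower in duodenum but stood above 70 FPKM in every duodenum library. The next enzyme, Ass1, which uses citrulline up, had 0.232, 0.688 and 0.472 FPKM in duodenum and 49.8, 56.4 and 45.9 FPKM in liver (log2 difference -5.15 ± 0.14 (SE), adjusted p = 5.91e-09).

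A different arginase was the more abundant transcript in each tissue. Arg2, the mitochondrial arginase, had 299, 338 and 378 FPKM in duodenum and 0.168, 0.125 and 0.379 FPKM in liver (log2 difference 8.12 ± 0.12 (SE), adjusted p = 2.52e-10). Arg1, the cytosolic arginase of the urea cycle, had 0.959, 0.701 and 1.09 FPKM in duodenum and 655, 740.0 and 595 FPKM in liver (log2 difference -8.44 ± 0.12 (SE), adjusted p = 2.49e-10). Of 38 tested amino acid breakdown genes, 2 were called higher, 32 lower and 4 not called (median -6.33). The tryptophan dioxygenases Tdo2 and Ido1, which start tryptophan breakdown, differed in opposite directions. Tdo2 had 0.493, 0.0949 and 0.24 FPKM in duodenum and 819.9, 789 and 843 FPKM in liver, and Ido1 had 10.5, 8.78 and 9.87 FPKM in duodenum and 0, 0.014 and 0 FPKM in liver. Ido1 and Sdsl were the 2 genes of that list called higher, and 1 was with median-of-ratios scaling.

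Glucose genes were called in both directions. Of 29 tested glucose and glycogen genes, 14 were called higher, 9 lower and 6 not called. The pyruvate kinases Pkm and Pklr were both called higher, Pklr at a log2 difference of 1.09. With median-of-ratios scaling Pklr stood at 0.38 and was not called. The fructose bisphosphatases parted, with Fbp2 called higher and Fbp1 lower (log2 difference -3.16 for Fbp1). The duodenum held Pkm, the muscle-type pyruvate kinase, at 272, 285 and 309 FPKM, against 4.84, 6.27 and 4.83 FPKM in liver (log2 difference 5.53 ± 0.12 (SE), adjusted p = 1.92e-09), and Fbp2, a second fructose bisphosphatase, at 235, 221 and 259 FPKM, against 0.224, 0.0346 and 0.177 FPKM in liver (log2 difference 7.71 ± 0.11 (SE), adjusted p = 2.21e-10). G6pc, the catalytic subunit that frees glucose into blood, was lower in duodenum but present there, at 26.03, 42.6 and 40.4 FPKM, against 474, 202 and 164 FPKM in liver (log2 difference -2.78 ± 0.39 (SE), adjusted p = 0.00031). Pck1, the entry enzyme of gluconeogenesis, had 44.4, 135 and 60.3 FPKM in duodenum and 613, 742 and 366 FPKM in liver. Neither gene overlapped between the tissues, which holds for most tested genes. All 3 duodenum libraries lay above all 3 liver libraries for 65.1% of them and below for 18.4%. The calls of G6pc and Pck1 were lost in the replicate block described below, at log2 differences of -3.03 and -2.60.

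Bile acid synthesis was a liver list. Of 14 tested genes, 1 was called higher, 11 lower and 2 not called; the single higher call, that of Acot8, was lost after median-of-ratios scaling. Cyp7a1, the rate-limiting enzyme of bile acid synthesis, had 0.00668, 0 and 0.00924 FPKM in duodenum and 16.9, 19.5 and 10.3 FPKM in liver, and Slc27a5, which activates bile acids for conjugation, 0.408, 0.167 and 0.419 FPKM in duodenum and 322, 270.2 and 298 FPKM in liver. Of 15 tested bile acid transport and signalling genes, 2 were called higher, 12 lower and 1 not called (15 of 19 in the table passed the filter). The 2 called higher were Slc51a and Slc51b, which form the basolateral exporter: Slc51a had 112, 81.6 and 135 FPKM in duodenum and 0.061, 0 and 0.0903 FPKM in liver (log2 difference 6.69 ± 0.17 (SE), adjusted p = 4.41e-09). Slc10a1 and Abcb11, the hepatocyte importer and the canalicular export pump, were lower in duodenum, Abcb11 at 0.108, 0 and 0.0665 FPKM in duodenum and 137, 133 and 139 FPKM in liver. Slc10a2, the importer known from the ileum, was also lower in duodenum than in liver, at 0.22, 0.233 and 0.165 FPKM in duodenum and 4.98, 21.8 and 4.36 FPKM in liver (log2 difference -2.90 ± 0.54 (SE), adjusted p = 0.00231), with liver 26 the highest; without liver 26 the log2 difference was -2.23, and in the fit of all 15 libraries it was not called (adjusted p = 0.0636; 4.74e-08 to 0.0636 over the alternatives). Fgf15, the ileal hormone that restrains bile acid synthesis, was listed at 0 in all 6 libraries. Nr1h4, the bile acid receptor FXR, had 12.7, 16.0 and 12.99 FPKM in duodenum and 42.3, 32.8 and 34.2 FPKM in liver (log2 difference -1.33 ± 0.13 (SE), adjusted p = 2.51e-05).

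Lipid synthesis genes were mainly called lower in duodenum, and lipid absorption genes were called higher more often than lower. Of 15 tested fatty acid synthesis genes, 1 was called higher, 10 lower and 4 not called (15 of 16 in the table passed the filter), and the single higher call, Elovl6, was lost in 3 of the 6 fits that leave out 1 library. Of 19 cholesterol synthesis genes 12 were called lower and none higher, 18 were called lower with median-of-ratios scaling, and 1 was called higher without duodenum 28; Idi1 had 21.8, 18.3 and 20.2 FPKM in duodenum and 95.6, 98.8 and 86.8 FPKM in liver. Of 22 fatty acid oxidation and ketone genes, 3 were called higher, 7 lower and 12 not called (22 of 23 in the table passed the filter), and 13 were called lower with median-of-ratios scaling. Oxct1, which consumes ketone bodies, had 26.1, 28.6 and 32.8 FPKM in duodenum and 1.32, 1.68 and 1.03 FPKM in liver (log2 difference 3.69 ± 0.13 (SE), adjusted p = 3.8e-08). Of 27 fat absorption and chylomicron genes, 14 were called higher, 5 lower and 8 not called (median 1.60). With median-of-ratios scaling 13 were called higher and 7 lower (median 0.90). Over all tested genes 33.7% were called higher and 10.3% lower as deposited. Mogat2, which rebuilds triglyceride in enterocytes, had 218, 197 and 225 FPKM in duodenum and 0.17, 0.0849 and 0.232 FPKM in liver (log2 difference 7.53 ± 0.10 (SE), adjusted p = 2.01e-10). Npc1l1, the cholesterol uptake protein that ezetimibe blocks, had 176, 178 and 173 FPKM in duodenum and 0.0143, 0 and 0.13 FPKM in liver (log2 difference 7.40 ± 0.09 (SE), adjusted p = 2.01e-10).

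Digestive enzymes of the brush border were a duodenum list. Of 23 tested genes, 22 were called higher, 1 lower and 0 not called, with a median of 5.43. They held 0.987 to 1.25% of the summed FPKM in duodenum and 0.0199 to 0.0227% in liver. Sis, sucrase-isomaltase, had 489, 587 and 483 FPKM in duodenum and 0.117, 0 and 0.256 FPKM in liver (log2 difference 8.86 ± 0.12 (SE), adjusted p = 2.21e-10). Lct, lactase, stood at 333, 323 and 308 FPKM in duodenum and 0.0872, 0 and 0.199 FPKM in liver, and the peptidase Mep1b, meprin beta, at 381, 317 and 346 FPKM in duodenum and 0.129, 0.101 and 0.258 FPKM in liver. Akp3, a duodenal alkaline phosphatase, varied among duodenum libraries, at 15.9, 76.5 and 116 FPKM, against 0.43, 0 and 0.0986 FPKM in liver; without duodenum 24 its log2 difference was 6.36 in place of 5.52. The gene called lower was Alpl, the tissue-nonspecific alkaline phosphatase, at 0.581, 0.568 and 0.473 FPKM in duodenum and 3.38, 2.39 and 3.20 FPKM in liver.

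Transporters for sugars, peptides and amino acids were mostly higher in duodenum. Slc5a1, the sodium-glucose cotransporter SGLT1, had 531, 503 and 559 FPKM in duodenum and 0.406, 0.129 and 0.6 FPKM in liver (log2 difference 8.61 ± 0.14 (SE), adjusted p = 2.94e-10). Slc2a5, the fructose carrier, had 49.7, 41.2 and 41.5 FPKM in duodenum and 0.808, 0.465 and 1.32 FPKM in liver (log2 difference 4.62 ± 0.17 (SE), adjusted p = 4.15e-08). Slc2a2, the carrier GLUT2 on the blood side of both enterocytes and hepatocytes, had 140.2, 137 and 125 FPKM in duodenum and 70.8, 20.0 and 64.6 FPKM in liver, with liver 26 the lowest (log2 difference 1.55 ± 0.45 (SE), adjusted p = 0.0141). Its call did not survive median-of-ratios scaling (log2 difference 0.83), the fit without liver 26 (0.98), the fit without duodenum 27 (adjusted p = 0.0545) or the fit of all 15 libraries (adjusted p = 0.248; 5.15e-05 to 0.248 over the alternatives). Of 12 sugar transport and fructose genes, 8 were called higher, 1 lower and 3 not called. Of 19 peptide and amino acid transporters, 13 were called higher, 3 lower and 3 not called (19 of 20 in the table passed the filter), and 5 were called lower under either other scaling. Slc15a1, the peptide transporter PEPT1, had 109, 99.1 and 102 FPKM in duodenum and 0.0496, 0.0197 and 0.151 FPKM in liver (log2 difference 6.60 ± 0.09 (SE), adjusted p = 2.21e-10). The 3 called lower as deposited were Slc38a3, Slc38a4 and Slc7a2, carriers for glutamine, small neutral and basic amino acids, with Slc38a3 at 0.325, 0.0611 and 0.309 FPKM in duodenum and 448, 541 and 489 FPKM in liver (log2 difference -8.65 ± 0.12 (SE), adjusted p = 2.21e-10).

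Iron genes showed the intestinal exporter partner and the hepatic hormone on opposite sides. The duodenum is the main site of iron uptake, and the liver hormone hepcidin restrains it. Heph, hephaestin, the oxidase that works with the iron exporter, had 44.8, 46.7 and 45.2 FPKM in duodenum and 0.28, 0.241 and 0.323 FPKM in liver (log2 difference 5.18 ± 0.09 (SE), adjusted p = 3.88e-10). Hamp, hepcidin, had 0.939, 0 and 0.774 FPKM in duodenum and 2140.5, 1427 and 1256 FPKM in liver (log2 difference -10.02 ± 0.29 (SE), adjusted p = 1.73e-08). Slc40a1, the exporter ferroportin itself, was lower in duodenum, at 3.84, 6.42 and 8.50 FPKM, than in liver, at 35.2, 36.0 and 36.4 FPKM (log2 difference -2.40 ± 0.22 (SE), adjusted p = 1.59e-05). Slc11a2, the iron importer DMT1, had 18.2, 20.1 and 20.6 FPKM in duodenum and 9.24, 9.19 and 9.21 FPKM in liver; its log2 difference of 1.01 lay at the threshold and was not called without duodenum 27 or 28 or with median-of-ratios scaling (0.34). Fth1, ferritin heavy chain, stood at 2977, 3718 and 4107 FPKM in duodenum and 940.1, 934 and 938 FPKM in liver (log2 difference 1.93 ± 0.17 (SE), adjusted p = 1.01e-05). Of 16 tested iron genes, 5 were called higher, 10 lower and 1 not called (16 of 17 in the table passed the filter), and the ferric reductase Cybrd1 was too low to be tested, at 0.604, 0.585 and 1.68 FPKM in duodenum and 0.0208, 0.0231 and 0.0158 FPKM in liver. The higher count of the iron list lay near the 33.7% over all tested genes, and the lower count above the 10.3%.

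Uptake genes for calcium, phosphate and vitamins were called higher in 14 of 17 tested, of 22 in the table, and lower in none on the deposited values, and higher in 11 and lower in 1 with median-of-ratios scaling. Vdr, the vitamin D receptor, had 100.3, 128 and 93.5 FPKM in duodenum and 0.08, 0.0696 and 0.0949 FPKM in liver (log2 difference 6.63 ± 0.13 (SE), adjusted p = 7.8e-10). S100g, the calcium-binding protein calbindin-D9k, had 27.9, 36.7 and 131 FPKM in duodenum, highest in duodenum 28, and 0, 0 and 0.0803 FPKM in liver; without duodenum 28 its log2 difference was 5.01 in place of 5.68. Trpv6, an apical calcium channel, was not tested, at 0.00969, 0 and 0.516 FPKM in duodenum and 0.00759, 0 and 0 FPKM in liver.

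The guanylin peptides, which set intestinal salt and water secretion, and their receptor were higher in duodenum. Guca2b, the peptide uroguanylin, had 1642, 1223 and 1644 FPKM in duodenum and 0.44, 0 and 0.809 FPKM in liver (log2 difference 10.08 ± 0.22 (SE), adjusted p = 2.67e-09). Guca2a, guanylin, had 219, 132 and 188 FPKM in duodenum and 0, 1.55 and 0.0638 FPKM in liver (log2 difference 6.99 ± 0.38 (SE), adjusted p = 1.83e-06). Their receptor Gucy2c had 99.4, 95.6 and 97.8 FPKM in duodenum and 0.0389, 0.191 and 0.0873 FPKM in liver (log2 difference 6.48 ± 0.09 (SE), adjusted p = 2.21e-10). In duodenum Guca2b thus stood above Guca2a in each library on the FPKM scale. Of 28 tested ion transport and guanylin genes, 20 were called higher, 7 lower and 1 not called (28 of 30 in the table passed the filter), and those called lower included Car3 and Aqp9, a carbonic anhydrase and a glycerol channel of hepatocytes, with Aqp9 at 0.302, 0.314 and 0.246 FPKM in duodenum and 145, 92.5 and 134 FPKM in liver.

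Mucosal defence had the highest median of the lists by function. Of 16 tested genes, 13 were called higher, 0 lower and 3 not called (16 of 22 in the table passed the filter), and 1 was called lower under both other scalings, with a pseudocount of 0.1, without duodenum 24 and without liver 27, with a median of 7.56. Lyz1, Paneth cell lysozyme, had 2531, 1730.4 and 1626 FPKM in duodenum and 1.22, 0.61 and 1.39 FPKM in liver (log2 difference 9.88 ± 0.21 (SE), adjusted p = 1.52e-09). Reg3b, a lectin that acts on bacteria, had 622, 259.9 and 314 FPKM in duodenum and 0.143, 0 and 0.127 FPKM in liver (log2 difference 8.42 ± 0.29 (SE), adjusted p = 6.31e-08). Zg16, a goblet cell lectin of the mucus layer, had 3644, 2690.2 and 4196 FPKM in duodenum and 0.812, 2.21 and 2.67 FPKM in liver (log2 difference 10.28 ± 0.28 (SE), adjusted p = 1.05e-08). Pigr, the receptor that carries immunoglobulin A across epithelia, was abundant in both tissues, at 939, 1169 and 935 FPKM in duodenum and 294, 257 and 330.4 FPKM in liver (log2 difference 1.78 ± 0.16 (SE), adjusted p = 1.23e-05). Muc2, the gel-forming mucin, stood at 127, 108 and 102 FPKM in duodenum and 0.0223, 0.717 and 0.0681 FPKM in liver. Tff3, the trefoil peptide of goblet cells, had 2525, 2012 and 3061 FPKM in duodenum and 1.98, 60.6 and 3.46 FPKM in liver, where liver 26 was highest; its log2 difference was 8.06, and 9.42 without liver 26 and 7.24 without liver 24.

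Of 22 enteroendocrine hormone and factor genes in the table, 13 were tested and all 13 were called higher in duodenum, while the other 9 did not pass the filter. The 22 genes summed to 0.168, 0.345 and 0.409 FPKM in the liver libraries. The 13 thus passed the filter through duodenum alone and had to be higher there. Their count is a description, to be read beside the 33.7% called higher over all tested genes. Gip, the incretin of K cells, had 185, 152 and 192 FPKM in duodenum and 0.0439, 0 and 0.104 FPKM in liver (log2 difference 7.39 ± 0.11 (SE), adjusted p = 2.52e-10). Sst, somatostatin, had 117, 93.7 and 93.2 FPKM in duodenum and 0.049, 0 and 0 FPKM in liver, and Cck, cholecystokinin, 80.6, 74.5 and 76.2 FPKM in duodenum and 0, 0 and 0.0482 FPKM in liver. Sct, secretin, had 63.1, 47.6 and 67.3 FPKM in duodenum and 0, 0.0578 and 0.0738 FPKM in liver, and Ghrl, ghrelin, 64.0, 58.1 and 57.0 FPKM in duodenum and was listed at 0 in liver. Each of these 5 hormones varied by less than 1.5 times among the duodenum libraries. Nts, neurotensin, varied more, at 16.0, 4.48 and 8.82 FPKM in duodenum and 0.0415, 0 and 0.0246 FPKM in liver.

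Transcription factors differed in both directions. Of 38 tested, 23 were called higher, 9 lower and 6 not called (38 of 44 in the table passed the filter). Cdx2, the intestinal homeobox factor, had 77.6, 64.1 and 79.5 FPKM in duodenum and 0.0212, 0.0295 and 0 FPKM in liver (log2 difference 6.19 ± 0.11 (SE), adjusted p = 4.91e-10). Hnf4g, an intestinal relative of Hnf4a, had 79.5, 129.8 and 106 FPKM in duodenum and 0.0626, 0.15 and 0.167 FPKM in liver (log2 difference 6.53 ± 0.17 (SE), adjusted p = 4.45e-09). Gata4, a factor of the proximal small intestine, had 40.8, 42.4 and 37.8 FPKM in duodenum and 7.26, 5.62 and 7.11 FPKM in liver (log2 difference 2.44 ± 0.11 (SE), adjusted p = 1.77e-07). Onecut1, a hepatocyte factor also called HNF6, was listed at 0 in all duodenum libraries and had 37.5, 19.6 and 36.1 FPKM in liver. Cebpa, the C/EBP alpha factor, had 19.6, 20.7 and 20.3 FPKM in duodenum and 157, 122.6 and 156 FPKM in liver (log2 difference -2.78 ± 0.13 (SE), adjusted p = 1.46e-07). Pdx1, which marks the duodenum among gut segments, was below the filter, at 0.764, 3.45 and 3.39 FPKM in duodenum and 0 in every liver library, with duodenum 24 lowest.

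Hnf4a, a nuclear receptor of both epithelia, had 124, 132 and 105 FPKM in duodenum and 158, 198 and 120.2 FPKM in liver and was not called (log2 difference -0.38, adjusted p = 0.0978); with median-of-ratios scaling it was called lower (-1.10). Of 39 Hox genes, which mark position along the body axis, 5 passed the filter on low values and all 5 were called higher, 2 of them with median-of-ratios scaling and none under quantile normalization; Hoxa5 had 2.38, 2.23 and 2.18 FPKM in duodenum and 0.172, 0.273 and 0.247 FPKM in liver.

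**Figure D4:**
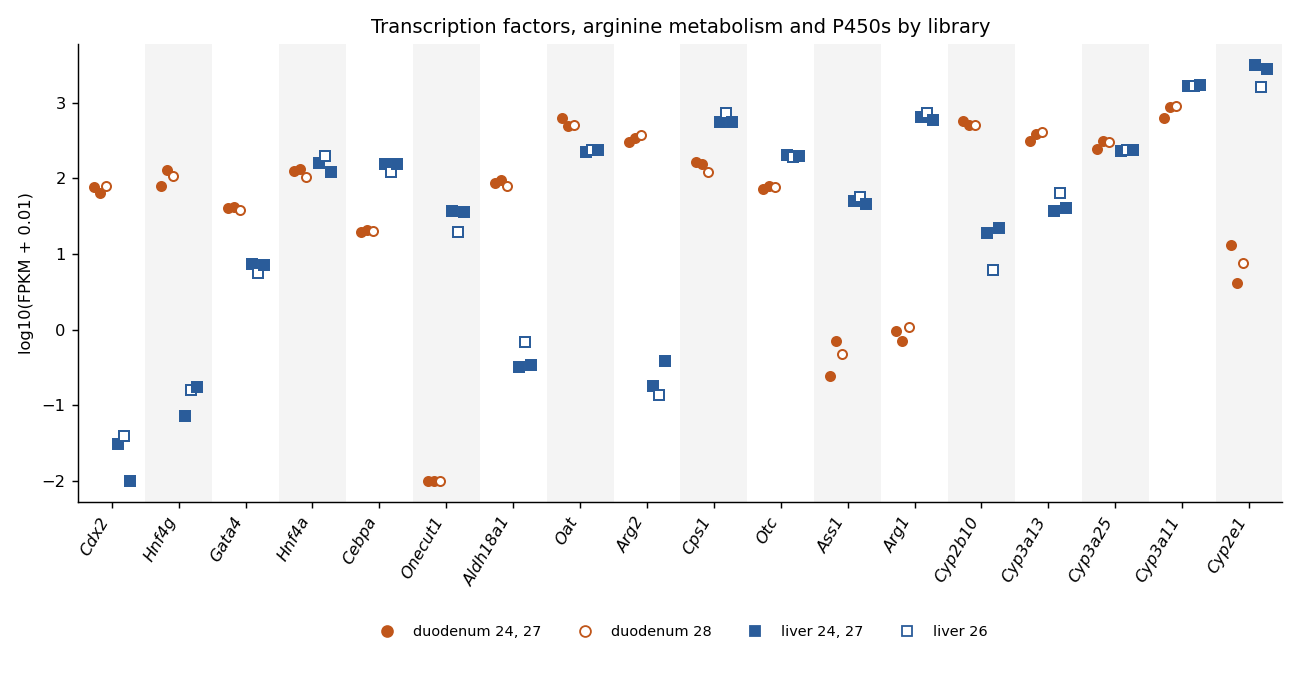
Level of 6 transcription factors, 7 genes of arginine metabolism and 5 P450s in each library as log10(FPKM + 0.01), with duodenum circles left of liver squares; open symbols are duodenum 28 and liver 26. Cdx2, Hnf4g, Aldh18a1 and Arg2 sit high in duodenum, Onecut1, Ass1, Arg1 and Cyp2e1 high in liver, and Hnf4a and Cyp3a25 at similar levels in both.

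Cytochrome P450s, the oxidases of drugs and lipids, were divided within families. Of 73 genes of families 1 to 4, 59 were tested; 13 were called higher, 37 lower and 9 not called (59 of 73 in the table passed the filter). The list held 0.748 to 0.949% of the summed FPKM in duodenum and 1.77 to 2.39% in liver. Cyp2c65 had 243, 244 and 273 FPKM in duodenum and 0.136, 0.0796 and 0.243 FPKM in liver (log2 difference 7.79 ± 0.10 (SE), adjusted p = 2.01e-10), whereas its family member Cyp2c50 had 0.216, 0.00622 and 0.235 FPKM in duodenum and 495, 268 and 487 FPKM in liver (log2 difference -8.45 ± 0.23 (SE), adjusted p = 1.21e-08). Cyp2c29 had 167, 289 and 223 FPKM in duodenum and 1249.9, 1089 and 1202 FPKM in liver (log2 difference -2.41 ± 0.21 (SE), adjusted p = 8.47e-06) and was not called in the fit of all 15 libraries (adjusted p = 0.117; 2.01e-06 to 0.117 over the alternatives). Cyp2b10, known as a target of the receptor CAR, had 564, 506 and 507 FPKM in duodenum and 18.9, 6.12 and 21.8 FPKM in liver (log2 difference 5.15 ± 0.41 (SE), adjusted p = 1.21e-05). Cyp1a1 and Cyp1a2, both targets of the dioxin receptor, differed in opposite directions: Cyp1a1 had 47.0, 61.7 and 39.9 FPKM in duodenum and 1.03, 0.4 and 0.931 FPKM in liver (log2 difference 4.82 ± 0.19 (SE), adjusted p = 8.58e-08), and Cyp1a2 0.31, 0.202 and 0.322 FPKM in duodenum and 358, 217 and 391 FPKM in liver (log2 difference -7.94 ± 0.21 (SE), adjusted p = 7.34e-09). Cyp2e1, which oxidises ethanol, had 13.2, 4.13 and 7.70 FPKM in duodenum and 3165, 1587 and 2756 FPKM in liver (log2 difference -8.13 ± 0.40 (SE), adjusted p = 5.85e-07). Liver 26 was the lowest liver library for Cyp2c50, Cyp2c29, Cyp2b10, Cyp1a1, Cyp1a2 and Cyp2e1, and its part in these differences is given by the fit without it, in which all 6 were called in the same direction.

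The Cyp3a subfamily, which carries much of oral drug metabolism, was abundant in both tissues. Cyp3a13 was higher in duodenum, at 314, 382 and 415 FPKM, than in liver, at 37.3, 63.7 and 40.0 FPKM (log2 difference 2.98 ± 0.21 (SE), adjusted p = 2.81e-06). Cyp3a25 had 243, 309 and 304 FPKM in duodenum and 233, 237 and 238 FPKM in liver and was not called; its log2 difference was 0.27 as deposited and -0.46 with median-of-ratios scaling. Cyp3a11 had 618, 863 and 916 FPKM in duodenum and 1662, 1684 and 1711 FPKM in liver (log2 difference -1.10 ± 0.18 (SE), adjusted p = 0.000546). Its call lower was lost without duodenum 24 (log2 difference -0.92), with quantile normalization (-0.62) and in the fit of all 15 libraries (adjusted p = 0.27; 5.06e-05 to 0.27 over the alternatives). P450 and other xenobiotic genes of these clusters share long stretches of sequence, so reads may be split between copies.

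Conjugating enzymes were likewise split by member. Of 16 tested glucuronosyltransferases, 1 was called higher, 11 lower and 4 not called (16 of 20 in the table passed the filter); the gene called higher was Ugt1a7c, at 181, 182 and 191 FPKM in duodenum and 0.203, 0.0995 and 0.18 FPKM in liver (log2 difference 7.32 ± 0.09 (SE), adjusted p = 2.01e-10), and Ugt1a transcripts share their last exons. Ugt2b1 had 0.18, 0.0819 and 0.241 FPKM in duodenum and 255, 301 and 270.0 FPKM in liver (log2 difference -7.89 ± 0.10 (SE), adjusted p = 2.01e-10). Of 18 sulfotransferases 6 were tested, and 3 were called higher, 2 lower and 1 not called (6 of 18 in the table passed the filter); Sult2b1 had 79.1, 71.0 and 98.3 FPKM in duodenum and 0, 0 and 0.129 FPKM in liver, and Sult1a1 3.12, 3.35 and 2.22 FPKM in duodenum and 84.4, 110.4 and 80.8 FPKM in liver. Of 23 glutathione S-transferases, 8 were called higher, 6 lower and 9 not called (23 of 26 in the table passed the filter), and 7 and 8 with median-of-ratios scaling. Mgst2, a microsomal transferase, had 317, 281 and 429 FPKM in duodenum and 0.0502, 0.186 and 0.178 FPKM in liver (log2 difference 8.22 ± 0.16 (SE), adjusted p = 7.79e-10), and Gsta3, an alpha-class one, 11.2, 12.5 and 12.4 FPKM in duodenum and 963, 861 and 881 FPKM in liver (log2 difference -6.11 ± 0.11 (SE), adjusted p = 6.62e-10). Among carboxylesterases, Ces2e had 852, 661 and 823 FPKM in duodenum and 81.8, 47.5 and 73.1 FPKM in liver (log2 difference 3.54 ± 0.21 (SE), adjusted p = 9.62e-07), while Ces3a had 2.05, 1.53 and 1.83 FPKM in duodenum and 992, 757 and 888 FPKM in liver and Ces1c 1.27, 0.882 and 1.17 FPKM in duodenum and 973, 975 and 827 FPKM in liver. Adh6a, an alcohol dehydrogenase, had 406, 570.3 and 652 FPKM in duodenum and 0.143, 0 and 0.276 FPKM in liver (log2 difference 8.88 ± 0.18 (SE), adjusted p = 1.12e-09), and Akr1c6, an aldo-keto reductase, 0.479, 0 and 0.311 FPKM in duodenum and 818, 617 and 745 FPKM in liver (log2 difference -9.18 ± 0.17 (SE), adjusted p = 6.45e-10). Of 42 tested alcohol, aldehyde and aldo-keto genes, of 49 in the table, 13 were called higher and 14 lower, and 12 and 21 with median-of-ratios scaling. Of 24 esterase, flavin monooxygenase and epoxide hydrolase genes, 8 were called higher, 11 lower and 5 not called (24 of 32 in the table passed the filter), and 5 and 14 with that scaling. Over all tested genes 33.7% were called higher and 10.3% lower on the deposited values. The higher counts of the glutathione S-transferase, alcohol and esterase lists lay near the first share, and their lower counts above the second.

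Drug transporters and receptors completed the xenobiotic set. Abcb1a, the efflux pump P-glycoprotein, had 39.3, 43.9 and 45.6 FPKM in duodenum and 0.782, 0.879 and 0.926 FPKM in liver (log2 difference 4.56 ± 0.10 (SE), adjusted p = 1.4e-09). Of 16 efflux transporters, 8 were called higher, 4 lower and 4 not called (16 of 17 in the table passed the filter), against 4 higher and 5 lower with median-of-ratios scaling and 5 higher without duodenum 27. Slco1b2, a hepatocyte carrier of organic anions, was lower in duodenum, at 0.188, 0.0178 and 0.124 FPKM, against 293, 136 and 264 FPKM in liver, while the nucleoside carrier Slc28a1 was higher, at 40.6, 48.3 and 41.4 FPKM in duodenum and 0.0782, 0.0145 and 0.0927 FPKM in liver (log2 difference 5.38 ± 0.10 (SE), adjusted p = 7.94e-10). Of 26 tested uptake carriers, 9 were called higher, 10 lower and 7 not called (26 of 46 in the table passed the filter), and 7 and 14 with median-of-ratios scaling. The higher count as deposited lay near the 33.7% over all tested genes, and the lower count above the 10.3%. Among receptors, Nr1i2, the pregnane X receptor, had 34.9, 48.2 and 41.0 FPKM in duodenum and 22.5, 22.8 and 20.0 FPKM in liver, with a log2 difference of 0.89 under the size threshold. Nr1i3, the receptor CAR, had 21.1, 41.2 and 29.0 FPKM in duodenum and 51.9, 28.04 and 46.7 FPKM in liver with overlapping ranges (adjusted p = 0.169), and was called lower with median-of-ratios scaling (-1.17). Ahr, the dioxin receptor, had 2.89, 5.08 and 2.94 FPKM in duodenum and 4.83, 5.02 and 4.49 FPKM in liver and was not called. Of 27 receptors, 5 were called higher, 7 lower and 15 not called (27 of 28 in the table passed the filter), and 3 and 11 with that scaling. As deposited, the higher count of the receptors lay below the 33.7% over all tested genes and the lower count above the 10.3%.

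Related genes of 21 families were set side by side, 1 pair each, chosen with earlier results of these data known. In 14 pairs the first gene was called higher and the second lower in duodenum, in 2 both were called higher, in 1 both lower, and in 21 of 21 the first gene had the larger log2 difference; since pairs were chosen for known tissue patterns, this count describes the choice as much as the data. The widest gap was that of Arg2 and Arg1, given above, followed by Ugt1a7c and Ugt2b1. Car4, a membrane carbonic anhydrase, had 88.1, 69.0 and 83.2 FPKM in duodenum and 0.0185, 0.086 and 0.022 FPKM in liver, and Car3 48.5, 12.8 and 27.7 FPKM in duodenum and 2037, 1331 and 1859.7 FPKM in liver. Fabp2, the intestinal fatty acid binding protein, had 2827, 2894 and 3498 FPKM in duodenum and 57.5, 48.3 and 51.2 FPKM in liver (log2 difference 5.85 ± 0.15 (SE), adjusted p = 3.89e-09), so that duodenum held it beside Fabp1. Glycogen phosphorylases separated as well, with Pygb at 12.1, 13.1 and 12.6 FPKM in duodenum and 1.45, 1.45 and 1.39 FPKM in liver and Pygl at 3.01, 2.41 and 1.90 FPKM in duodenum and 125, 84.8 and 111 FPKM in liver. The 2 pairs called higher in both genes were pyruvate kinases and hexose carriers: Pklr, the liver pyruvate kinase, had 75.4, 94.5 and 87.7 FPKM in duodenum and 53.9, 21.7 and 52.3 FPKM in liver, and its call was lost without liver 26 (log2 difference 0.68), without duodenum 27 (adjusted p = 0.0562; 0.00132 to 0.323 over the alternatives) and with median-of-ratios scaling (0.38).

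**Figure D5:**
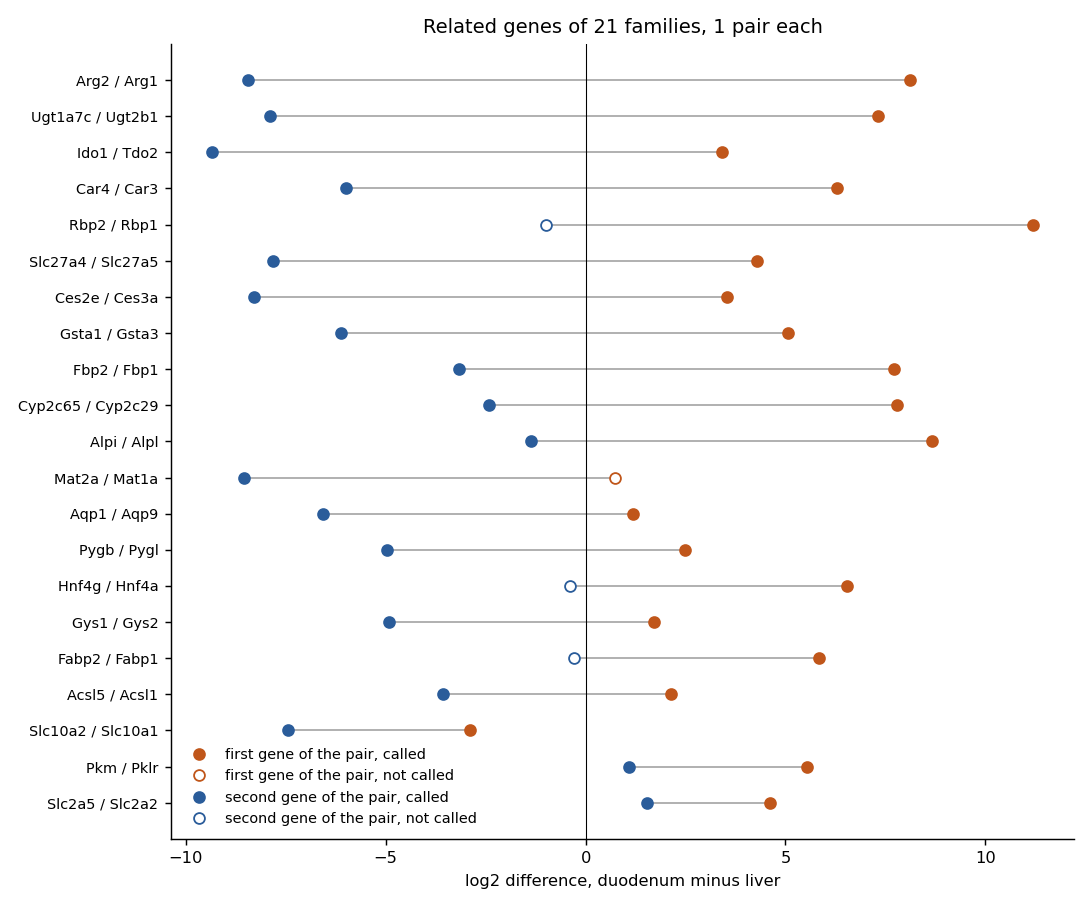
Log2 difference, duodenum minus liver, of both genes of 21 pairs, ordered by the gap between them; filled points were called and open points were not. The gap runs from 3.07 for Slc2a5 and Slc2a2 to 16.55 for Arg2 and Arg1.

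Marker lists for cell types, chosen with earlier results of these data known, are given as descriptions and cannot check the labels. Some markers passed the filter through 1 tissue alone and had to differ. The 10 enteroendocrine cell markers, for example, summed to 0.497 to 0.528 FPKM in a liver library. Over all tested genes 33.7% were called higher and 10.3% lower. All 12 tested hepatocyte markers were called lower in duodenum and all 9 enterocyte markers higher. The 7 Kupffer cell markers, of the liver's resident macrophages, were all called lower; Clec4f had 0.0359, 0.0374 and 0.0497 FPKM in duodenum and 36.4, 41.0 and 39.0 FPKM in liver (log2 difference -5.26 ± 0.09 (SE), adjusted p = 4.84e-10). Of 7 markers of liver sinusoidal endothelium 5 were called lower, with Clec4g at 0.0501, 0.026 and 0.0347 FPKM in duodenum and 49.5, 40.2 and 45.7 FPKM in liver, and of 7 hepatic stellate markers 4 were called lower and 1 higher, the higher call being lost under both other scalings. Bile duct markers went the other way, 5 of 6 tested of 7 in the table called higher in duodenum, among them Krt19, an epithelial keratin, at 733, 510.1 and 656 FPKM in duodenum and 0.87, 1.36 and 0.845 FPKM in liver; the sixth, Spp1, osteopontin, had 0.299, 0.488 and 2.03 FPKM in duodenum and 19.9, 25.3 and 19.5 FPKM in liver. These bile duct genes are shared with gut epithelium.

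Markers of many cell types of the gut wall were called higher in duodenum. Vascular endothelium differed, with 1 of 6 markers called higher, 0 lower and 5 not called. With median-of-ratios scaling 0 of these were called higher and 2 lower. All 8 Paneth, 10 enteroendocrine and 14 proliferating cell markers were called higher, as were 9 of 10 goblet cell markers, 5 of 6 tested of 9 tuft cell markers (3 under quantile normalization) and 6 of 8 crypt stem cell markers. Mki67, a protein of dividing cells, had 19.8, 18.4 and 12.4 FPKM in duodenum and 0.216, 0.389 and 0.293 FPKM in liver (log2 difference 3.76 ± 0.17 (SE), adjusted p = 1.41e-07). Olfm4, a crypt base protein, had 316, 220.4 and 158 FPKM in duodenum and 0.0712, 0.0264 and 0.118 FPKM in liver (log2 difference 7.70 ± 0.22 (SE), adjusted p = 1.45e-08). Of 13 genes in the neuron, glia and Cajal cell list 6 were tested and 5 called higher, and 3 under either other scaling, with the peptide Vip at 15.3, 13.9 and 11.5 FPKM in duodenum and 0, 0.0143 and 0.0183 FPKM in liver. All 9 tested of 10 smooth muscle markers were higher, with Myh11, smooth muscle myosin, at 47.8, 62.9 and 56.5 FPKM in duodenum and 0.383, 0.674 and 0.331 FPKM in liver. The 10 tested of 12 T cell markers were all higher, with the granzyme Gzma at 69.1, 61.1 and 111 FPKM in duodenum and 0.207, 0.852 and 0.351 FPKM in liver, and the 7 genes of class II antigen presentation too, with Cd74 at 407, 469 and 219 FPKM in duodenum and 64.0, 109.7 and 113 FPKM in liver. Igj, the joining chain of secreted antibodies, had 244, 201 and 131 FPKM in duodenum and 0.249, 0.161 and 0.437 FPKM in liver (log2 difference 7.19 ± 0.22 (SE), adjusted p = 1.76e-08). Red blood cell genes were called lower in 4 of 5 tested of 6 (2 in the fit of all 15 libraries and 1 in the replicate block), Alas2 at 0.642, 0.378 and 0.266 FPKM in duodenum and 61.8, 72.7 and 56.6 FPKM in liver. Of the marker lists in these 2 paragraphs, 1 moved by more than 1 member without duodenum 28, without liver 26 or without both: 5 of the 7 Kupffer cell markers were called lower without duodenum 28 and without both libraries.

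Housekeeping machinery moved with the scaling. Of 76 tested ribosomal protein genes, of 79 in the table, 71 were called higher in duodenum and none lower, with a median of 1.58, and 26 were called higher and none lower with median-of-ratios scaling (0.86). They held 2.79 to 3.95% of the summed FPKM in duodenum and 0.972 to 1.08% in liver. Rps12 had 50.6, 23.3 and 59.4 FPKM in duodenum, lowest in duodenum 27, and 2.40, 2.43 and 2.53 FPKM in liver (log2 difference 3.62 ± 0.31 (SE), adjusted p = 1.54e-05). Its difference lay well above the list median of 1.58, so Rps12 is not typical of the list. Of 76 tested respiratory chain and ATP synthase genes, of 80 in the table, 37 were called higher, 3 with median-of-ratios scaling, 24 under quantile normalization and 24 without duodenum 28; none was called lower in these fits. Cox7a1, a cytochrome oxidase subunit known from muscle, had 385, 329.5 and 544 FPKM in duodenum and 2.58, 4.58 and 2.79 FPKM in liver (log2 difference 6.60 ± 0.23 (SE), adjusted p = 3.83e-08). The median of the respiratory chain list was 0.99, so Cox7a1 is not typical of it either. Endoplasmic reticulum chaperones were called higher in 2 and lower in 1 of 20 on the deposited values, in 0 and 8 with median-of-ratios scaling and in 1 and 3 under quantile normalization.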

How the data were processed

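Per the labels' protocols, RNA was isolated from snap-frozen tissue, made into libraries with a TruSeq kit and sequenced on an Illumina instrument. The submitters' processing notes name CASAVA, FastQC, TopHat2 2.0.3, Bowtie 0.12.8, SAMtools 0.1.18, Cufflinks 2.0.0 and the mm10 build; whether counting used strand is not given in the sources used here. The authors deposited 1 table of FPKM values, with 23845 gene records in 15 libraries. Here, records sharing a symbol were summed (754 records, 258 symbols, 44 of them on several chromosomes), except 27 records whose symbol had become a date, which were kept apart, leaving 23349 genes. Genes with at least 1 FPKM in 3 of the 6 libraries were tested on log2(FPKM + 1) with limma 3.58.1 in R 4.3.3 (lmFit, eBayes with trend and robust), two-sided, with Benjamini-Hochberg adjustment over all tested genes. Fold changes on this scale understate the change of low genes. The script was tested on simulated data. Tables and figures were made with Python 3.11.15, pandas 2.3.3 and matplotlib 3.10.9. Alternatives were scaling, pseudocount, filter, record summing, the fit of all 15 libraries, the replicate block and leaving out libraries.

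The comparison, gene lists, pairs and motifs were chosen with earlier results of these data known. Genes were named by rule: the 10 largest called differences each way, the 8 most abundant genes per tissue, up to 4 called members each way and the most variable member of each list, a fixed set and both genes of each pair. Other named genes were chosen after their values were seen. A few genes, pairs and motifs are not reported here.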

Additional observations from a re-analysis of the deposited data

How the results depend on the processing

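Scaling moved the counts most. On deposited FPKM 4160 genes were called higher and 1269 lower; with median-of-ratios scaling these were 2443 and 2039, and with quantile normalization 2364 and 2045, so that higher calls made up 76.6, 54.5 and 53.6% of calls. Counts were 4914 and 1438 with a pseudocount of 0.1, 4229 and 1281 with no filter and 4149 and 1262 in the fit of all 15 libraries, and leaving out 1 library gave 4075 to 4225 higher and 1248 to 1307 lower. The count of pairs with opposite calls stayed within 1.5 times of 14 under each alternative run. With 200 genes each way in place of 100, the share of genes with a GC box in a promoter was 13.8% in the lower set, in place of 7.14%. Directions turned for few named genes. Apoa1 stood at -0.12 as deposited, at -0.84 with median-of-ratios scaling, at 0.61 with quantile normalization and between -0.20 without liver 27 and 0.016 without liver 26. Fabp1 stood at 0.19 with quantile normalization. Cyp3a25 stood at -0.46 with median-of-ratios scaling. Mt2, at -0.58 with all 6 libraries, ranged between -1.76 without liver 24 and 1.54 without liver 26, and was 1.30 both with the replicate block and without duodenum 28 and liver 26. The cause was not tested. Libraries 24 and 27 carry the same number in both tissues: their deviations from the tissue means correlated at 0.0766 and 0.228, and a replicate block, in which libraries 26 and 28 add nothing to the difference, gave 4245 higher and 1254 lower calls and lost the calls of 9 genes named here, among them Alb (adjusted p = 0.0776; 1.84e-08 to 0.0776 over the alternatives), G6pc and Pck1. Their log2 differences in the block were -12.24, -3.03 and -2.60, beside -11.87, -2.78 and -2.93 without it. Depth is unknown, so no limit for values of 0 can be given.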

Other observations

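Immune and stromal genes varied between duodenum libraries. Ms4a1, the B cell antigen CD20, had 4.39, 0.147 and 0.176 FPKM in duodenum and 0.233, 0.422 and 0.276 FPKM in liver, and Cd79a, part of the B cell receptor, 12.4, 2.16 and 1.79 FPKM in duodenum and 0.616, 0.874 and 0.815 FPKM in liver, with duodenum 24 highest for both. Col6a1, a collagen of connective tissue, had 14.8, 32.0 and 10.3 FPKM in duodenum, with duodenum 27 highest, and 1.71, 1.75 and 1.42 FPKM in liver. Of 18 tested collagen genes 12 were called higher and 3 lower in duodenum, and 7 higher under quantile normalization. Of 7 tested B cell and plasma cell markers 4 were called higher with all 6 libraries, 6 without duodenum 28 and 2 under quantile normalization.

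Single values of 0 beside high ones also occurred. Cyp4f14, a fatty acid hydroxylase, was listed at 0 in the 3 duodenum libraries and had 109, 0 and 89.2 FPKM in liver, and it did not pass the filter. Of the tested genes, 2, 4 and 1 were listed at 0 in duodenum 24, 27 and 28 while the other duodenum libraries held at least 10 FPKM, and 1, 0 and 3 in liver 24, 26 and 27.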
